A study of Mus musculus with 16 samples.

Results

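Serotonin receptor transcripts were measured in primary forebrain neuron cultures from mice after lentiviral transduction. The genes described are Htr1a, Htr1b, Htr1d, Htr1f, Htr2a, Htr2c, Htr3a, Htr4, Htr5a and Htr7, which are 10 of the 55335 genes in the deposited count table and 10 of the 14 serotonin receptor genes in it. They were named by symbol with earlier results of these libraries known, and which values led to each name is not recorded. Their levels and differences are therefore given as a description, without p-values. How many of them lay past the threshold used for all genes is printed beside the share of all genes that did, and is not offered as a test of the 10. All 10 passed the filter on low counts, as did 19479 genes in all, and Htr1d was the scarcest of the 10.

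The cultures were made around birth, and total RNA was depleted of ribosomal RNA before directional libraries were prepared. The 16 libraries fall into 4 groups of 4, and all of them, controls included, carried a lentiviral vector. The groups were an empty vector (Empty_Vector), a small-hairpin RNA (shRNA, called the unmutated hairpin here), the same hairpin with 2 point mutations (shRNA_2bp) and the same hairpin with 5 point mutations (shRNA_5bp). The labels give no strain, age, sex, day of collection, hairpin sequence or hairpin target, nor do they state that replicates were grown as separate cultures, so p-values here measure only the spread between these libraries. Comparisons with the empty vector all use the same 4 control libraries.

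Serotonin reaches the forebrain from neurons of the brainstem raphe nuclei and acts through several receptor families. The Htr1 and Htr5 receptors couple to inhibitory Gi/o proteins, which lower cyclic AMP, and the Htr2 receptors couple to Gq, which activates phospholipase C. Htr4, Htr6 and Htr7 couple to Gs, which raises cyclic AMP, while Htr3 receptors are ion channels opened by serotonin and are found mainly on interneurons born in the caudal ganglionic eminence.

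Library totals ran from 33795369 to 49824569 counts. Levels are given as CPM (counts scaled to a common library total) after scaling by the trimmed mean of M-values (TMM). Sums of 10 pan-neuronal markers ran from 6610 to 7950 CPM over the 16 libraries, and those of 8 serotonergic neuron markers from 1.19 to 2.90 CPM. The raphe determinants Fev, Gata2, Gata3 and En1 stayed below a mean of 0.1 CPM in every group, with Gata3 at 0 in the empty-vector libraries. The other 4 had group means from 0.0278 to 1.84 CPM. Of these, Tph2 was highest with 2 mutations (1.84 CPM), and Slc6a4 (0.744), Slc18a2 (0.853) and Lmx1b (0.301) were highest with 5. The summed inhibitory neuron markers (8 of 8 measured, none at 0) were 528 to 608 CPM with the empty vector, 141 to 265 with the unmutated hairpin, 183 to 278 with 2 mutations and 202 to 289 with 5. As these are bulk libraries, fewer cells of a type and less RNA per cell cannot be told apart.

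The receptor genes differed in different groups. Htr1b and Htr2a were lowest with the unmutated hairpin and highest with the 5-mutation hairpin. Htr2c was lowest with the 2-mutation hairpin and was also low with 5 mutations. Htr3a was low with the 5-mutation hairpin, and Htr1a and Htr4 were low with the 2-mutation hairpin. Htr5a was highest with 2 mutations, and Htr7 stayed within a narrow range.

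**Figure D1:**
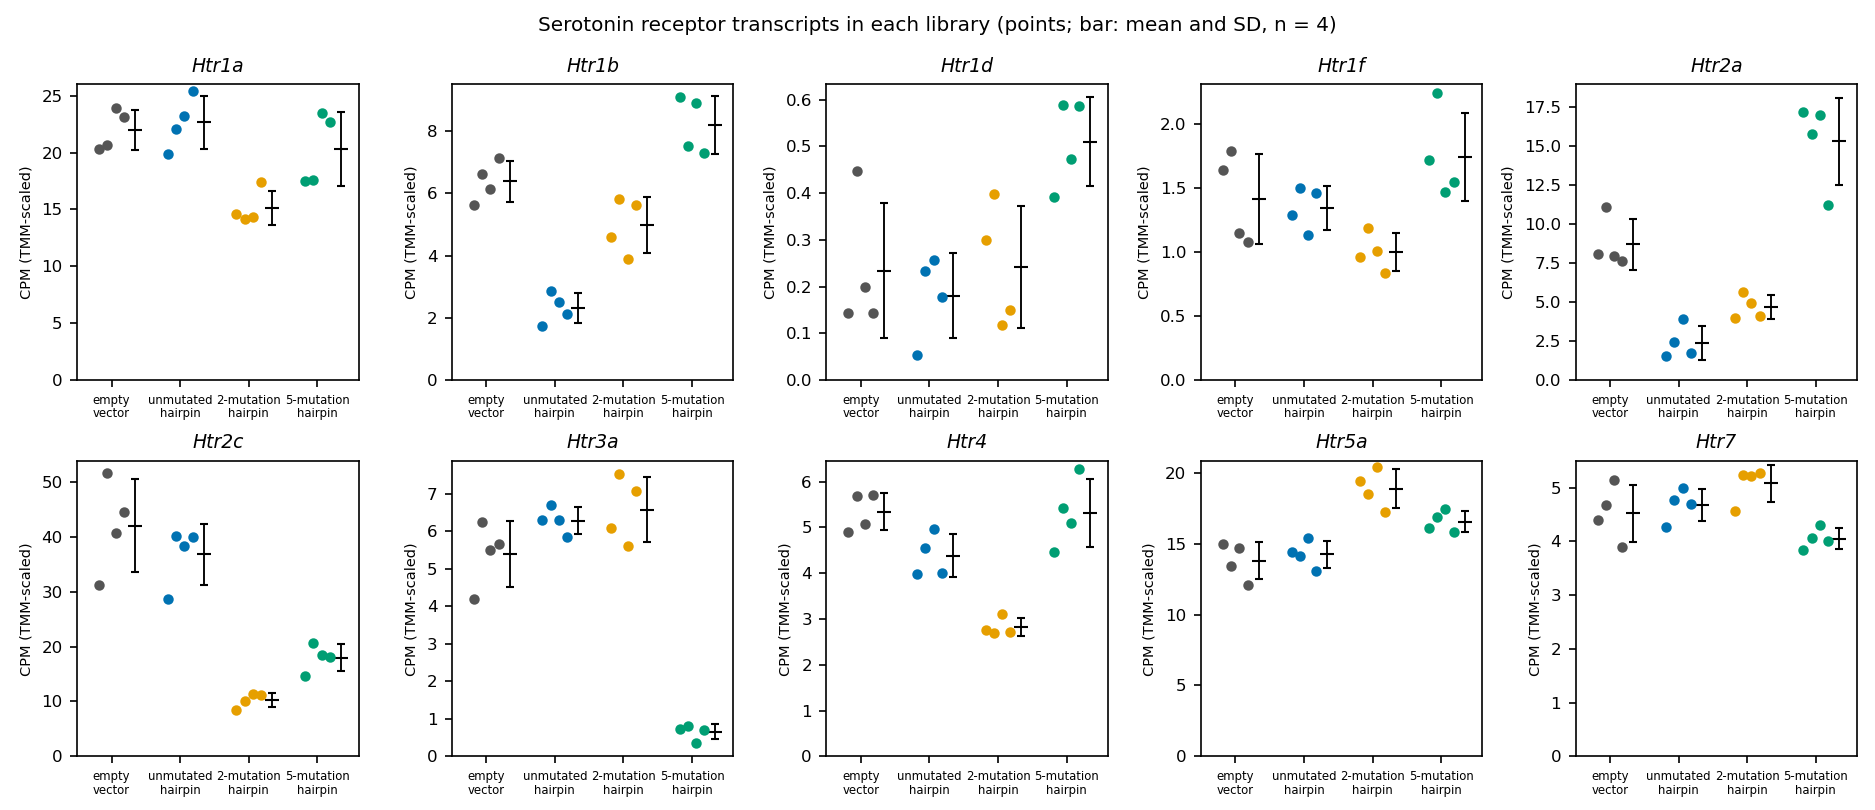
Level of each of the 10 receptor genes in each library (points, 4 per group), in TMM-scaled CPM on axes that start at 0, with the group mean and SD (n = 4) as a bar. Htr3a sat at 0.361 to 0.824 CPM with the 5-mutation hairpin and at 4.19 to 7.52 CPM in the other 12 libraries.

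Among the 5 Gi/o-coupled genes of the 10, Htr1b, a receptor of axon terminals that restrains transmitter release, showed the widest ratio between group means. Htr1b (chr9:81628291-81633828 on the minus strand of GRCm38) and Htr2a (chr14:74640840-74709494 on the plus strand) followed each other across the 16 libraries more closely than any other pair of the 10, and their upstream sequences are shown for that reason. They come from RefSeq promoters of build GRCm38.p6, taken up to the annotated start, at chr9:81633833-81634082 (minus strand, 250 bases, 52.4% G or C) and chr14:74640624-74640839 (plus strand, 216 bases, 51.4% G or C). Capitals mark matches on either strand to CCAAT or to the GC box GGGCGG, which do not overlap each other in these 2 sequences:
Htr1b: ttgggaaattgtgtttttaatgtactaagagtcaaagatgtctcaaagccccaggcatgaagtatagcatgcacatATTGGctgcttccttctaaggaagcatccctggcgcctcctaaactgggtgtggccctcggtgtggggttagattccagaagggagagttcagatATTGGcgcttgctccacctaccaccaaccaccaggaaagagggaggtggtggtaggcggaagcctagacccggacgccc
Htr2a: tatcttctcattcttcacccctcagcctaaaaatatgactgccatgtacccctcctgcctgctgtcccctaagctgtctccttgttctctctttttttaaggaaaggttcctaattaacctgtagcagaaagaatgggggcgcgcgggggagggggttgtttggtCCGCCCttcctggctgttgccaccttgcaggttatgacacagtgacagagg
The Htr1b sequence held 2 CCAAT matches and no GC box, and the Htr2a sequence held 1 GC box and no CCAAT match. Of all RefSeq promoters searched, 34.5% held CCAAT and 32.9% held the GC box, over 27025 promoters and 250 bases upstream. A match to these letters is a description of the sequence only.

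Htr1b stood at 5.63, 6.64, 6.14 and 7.15 CPM in the empty-vector libraries and at 1.75, 2.85, 2.51 and 2.12 CPM with the unmutated hairpin. It stood at 4.61, 5.83, 3.90 and 5.63 CPM with 2 mutations and at 9.09, 7.53, 8.92 and 7.29 CPM with 5. Every library of the unmutated hairpin lay below every other library, every library of the 5-mutation hairpin lay above, and the 2-mutation and empty-vector libraries overlapped. On the log2 scale the difference from the empty vector was -1.46 ± 0.15 (SE of the fit, n = 4 per group) with the unmutated hairpin, -0.36 ± 0.14 with 2 mutations and 0.36 ± 0.13 with 5. The antisense gene D430036J16Rik shares exon sequence with Htr1b, and its count was 45.8 to 64.0% of that of Htr1b with the 5-mutation hairpin, against 1.91 to 29.2% in the other libraries. D430036J16Rik had 3.34 to 5.82 CPM with 5 mutations and 0.107 to 1.0 CPM elsewhere. The strand setting of the counting is not given in the sources used here, so reads of these 2 genes cannot be told apart, and their part in the Htr1b values was not tested.

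Htr1a (chr13:105443639-105448122, plus strand), the main inhibitory serotonin receptor of cell bodies and dendrites, was measured at 20.3, 20.7, 23.9 and 23.1 CPM with the empty vector and at 19.9, 22.1, 23.2 and 25.4 CPM with the unmutated hairpin. Its values were 14.6, 14.2, 14.3 and 17.4 CPM with 2 mutations and 17.5, 17.6, 23.5 and 22.7 CPM with 5. The 2-mutation libraries lay below all others, while the remaining 3 groups overlapped. The log2 difference from the empty vector was -0.54 ± 0.10 with 2 mutations, 0.04 ± 0.10 with the unmutated hairpin and -0.12 ± 0.10 with 5 mutations. The 5-mutation libraries split into a pair near 17.5 and a pair near 23, which gave the largest relative spread of Htr1a in any group (coefficient of variation 15.7%).

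Htr5a (chr5:27842149-27855088, plus strand), a Gi/o-coupled receptor of forebrain neurons, stood at 15.0, 13.4, 14.7 and 12.1 CPM with the empty vector and at 14.4, 14.1, 15.4 and 13.1 CPM with the unmutated hairpin. It stood at 19.4, 18.5, 20.4 and 17.2 CPM with 2 mutations and at 16.1, 16.9, 17.4 and 15.8 CPM with 5. Both mutated hairpins lay above the empty vector without overlap, and they overlapped each other. The log2 differences from the empty vector were 0.05 ± 0.07, 0.45 ± 0.07 and 0.26 ± 0.07 with 0, 2 and 5 mutations.

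Htr1f and Htr1d, which also couple to Gi/o, were the lowest of the 10 per exon length with the empty vector and with 2 mutations. Htr1f stood at 1.64, 1.79, 1.15 and 1.08 CPM with the empty vector and at 1.29, 1.50, 1.13 and 1.46 CPM with the unmutated hairpin. It was at 0.960, 1.19, 1.01 and 0.838 CPM with 2 mutations and at 1.72, 2.24, 1.47 and 1.55 CPM with 5, and only these mutated groups did not overlap each other (log2 difference, 2 minus 5 mutations, -0.82 ± 0.20). Htr1d rested on 2 to 30 counts a library. Its levels were 0.144, 0.447, 0.199 and 0.144 CPM with the empty vector, 0.0539, 0.234, 0.256 and 0.177 with the unmutated hairpin, 0.299, 0.397, 0.118 and 0.150 with 2 mutations and 0.392, 0.588, 0.473 and 0.586 with 5. The 5-mutation libraries were highest on average, and their lowest value lay below the highest of the empty-vector and of the 2-mutation libraries. The log2 difference of Htr1d from the empty vector was 1.15 ± 0.42 with 5 mutations, -0.32 ± 0.49 with the unmutated hairpin and 0.07 ± 0.46 with 2 mutations.

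The Gq-coupled receptors Htr2a and Htr2c were low in different groups. Htr2a, the receptor of cortical pyramidal neurons through which classical hallucinogens act, stood at 8.07, 11.1, 7.95 and 7.65 CPM with the empty vector and at 1.51, 2.41, 3.92 and 1.74 CPM with the unmutated hairpin. It was at 3.97, 5.61, 4.92 and 4.10 CPM with 2 mutations and at 17.2, 15.8, 17.0 and 11.2 CPM with 5. The groups stood in the order unmutated, 2 mutations, empty vector and 5 mutations without any overlap. The log2 difference from the empty vector was -1.85 ± 0.25 with the unmutated hairpin (3.61-fold lower), -0.90 ± 0.23 with 2 mutations and 0.82 ± 0.21 with 5. Between the unmutated and the 5-mutation hairpin it was -2.67 ± 0.24, a 6.38-fold gap between hairpins that differ by 5 point mutations. The 10 excitatory neuron markers (10 of 10 measured, none at 0) summed to 1950 to 2150 CPM with the empty vector, 1880 to 1950 with the unmutated hairpin, 1990 to 2070 with 2 mutations and 1130 to 1220 with 5. Their lowest group was thus the group in which Htr2a was highest.

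Htr2c (chrX:146962513-147197277, plus strand), whose transcript is edited from adenosine to inosine and spliced in ways that tune its coupling, stood at 31.2, 51.6, 40.7 and 44.5 CPM with the empty vector and at 28.6, 40.2, 38.3 and 40.0 CPM with the unmutated hairpin. It was at 8.43, 10.1, 11.3 and 11.1 CPM with 2 mutations and at 14.7, 20.6, 18.5 and 18.1 CPM with 5. The empty-vector and unmutated libraries overlapped, and both mutated groups lay below them and apart from each other. Replicate 1 was the lowest library of each group, and within each replicate number the unmutated value lay below the empty-vector value. The log2 difference from the empty vector was -2.04 ± 0.16 with 2 mutations (4.11-fold lower), -1.22 ± 0.16 with 5 mutations (2.33-fold lower) and -0.19 ± 0.15 with the unmutated hairpin. Htr2c is also abundant in choroid plexus, so 9 markers of that tissue were measured (9 of 9, none at 0). They summed to 6.43 to 33.7 CPM with the empty vector, 8.21 to 48.9 with the unmutated hairpin, 9.45 to 61.9 with 2 mutations and 8.51 to 128 with 5, and the group means of Kcnj13 with the empty vector and of Kcne2 with 2 mutations were below 0.1 CPM. The choroid plexus sums overlapped between all 4 groups but followed the replicate number. In each group replicate 2 was lowest (6.43, 8.21, 9.45 and 8.51 CPM) and replicate 1 was next. Within each replicate number the sum was higher with every hairpin than with the empty vector. The 8 small RNA genes inside Htr2c, 7 of them miRNA genes, held 214 counts over the 16 libraries against 17275 for Htr2c itself.

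Among the Gs-coupled receptors, Htr4 stood at 4.91, 5.69, 5.08 and 5.71 CPM with the empty vector and at 3.99, 4.56, 4.97 and 4.01 CPM with the unmutated hairpin. It was at 2.77, 2.70, 3.11 and 2.71 CPM with 2 mutations and at 4.47, 5.43, 5.09 and 6.27 CPM with 5. The 2-mutation libraries lay below all others (log2 difference from the empty vector -0.92 ± 0.12), and the other 3 groups overlapped (-0.29 ± 0.11 with the unmutated hairpin and -0.01 ± 0.11 with 5 mutations). Htr7, a Gs-coupled receptor of thalamus and hippocampus, was the steadiest of the 10. Its levels were 4.39, 4.67, 5.15 and 3.89 CPM with the empty vector, 4.26, 4.77, 4.99 and 4.69 with the unmutated hairpin, 4.57, 5.24, 5.22 and 5.28 with 2 mutations and 3.84, 4.06, 4.31 and 4.00 with 5. Only the 2 mutated hairpins did not overlap each other (log2 difference, 2 minus 5 mutations, 0.33 ± 0.10), and no log2 difference of Htr7 from the empty vector was larger than 0.16 in size.

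Htr3a (chr9:48899213-48911099, minus strand), the only ion channel subunit of the 10, showed the largest log2 difference of the 10. It stood at 4.19, 6.25, 5.50 and 5.66 CPM with the empty vector, at 6.30, 6.71, 6.30 and 5.85 CPM with the unmutated hairpin and at 6.10, 7.52, 5.62 and 7.09 CPM with 2 mutations. With 5 mutations it stood at 0.719, 0.824, 0.361 and 0.714 CPM, from 13 to 42 counts a library. The 5-mutation libraries lay far below the other 12, whose 3 groups overlapped. The log2 difference of the 5-mutation hairpin from the empty vector was -3.01 ± 0.18 (8.06-fold lower), while it was 0.22 ± 0.14 with the unmutated hairpin and 0.28 ± 0.14 with 2 mutations.

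Markers of interneurons were measured beside Htr3a. They were chosen with earlier results of these data known and named after their values were seen. How many passed is therefore a description only. The 9 markers of caudal eminence interneurons (9 of 9 measured, none at 0) summed to 429 to 542 CPM with the empty vector, 263 to 328 with the unmutated hairpin, 505 to 623 with 2 mutations and 221 to 272 with 5. By edgeR's quasi-likelihood test with Benjamini-Hochberg adjustment, 7 of the 9 were lower with 5 mutations, where 26.5% of all genes were lower, among them Npas1 at 0.786 against 3.70 CPM and Prox1 at 6.25 against 19.9 CPM. Vip, at 3.13 against 6.35 CPM, and Lamp5, at 3.39 against 4.10 CPM, did not pass. With the unmutated hairpin 3 of the 9 were lower (Reln, Calb2 and Cck) and 1 was higher (Lamp5), where 19.5% of all genes were lower and 20.8% higher. The low sum with this hairpin came mainly from Reln, at 142 against 279 CPM, the most abundant of the 9. Npas1 (3.67 against 3.70 CPM), Prox1 (26.7 against 19.9), Sp8 (3.29 against 2.75) and Vip (5.90 against 6.35) did not pass with the unmutated hairpin, and with 5 mutations they stood at 0.786, 6.25, 1.33 and 3.13 CPM. Nr2f2 (13.1 against 18.6 CPM) did not pass with the unmutated hairpin either, and stood at 11.6 CPM with 5 mutations. The means of Npas1, Prox1, Sp8, Vip and Reln (121 CPM), like that of Htr3a, were lowest with 5 mutations. Those of Calb2 (5.35 CPM), Nr2f2 (8.93) and Lamp5 (1.77) were lowest with 2 mutations, where Htr3a had its highest mean. Cck (73.5 CPM) had its lowest mean with the unmutated hairpin. Medial eminence markers (7 of 7 measured, none at 0, with Pvalb below a mean of 0.1 CPM with 2 mutations) summed to 252 to 283 CPM with the empty vector, 107 to 133 with the unmutated hairpin, 125 to 138 with 2 mutations and 187 to 198 with 5. The part of cell composition in the Htr3a values was not tested.

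**Figure D2:**
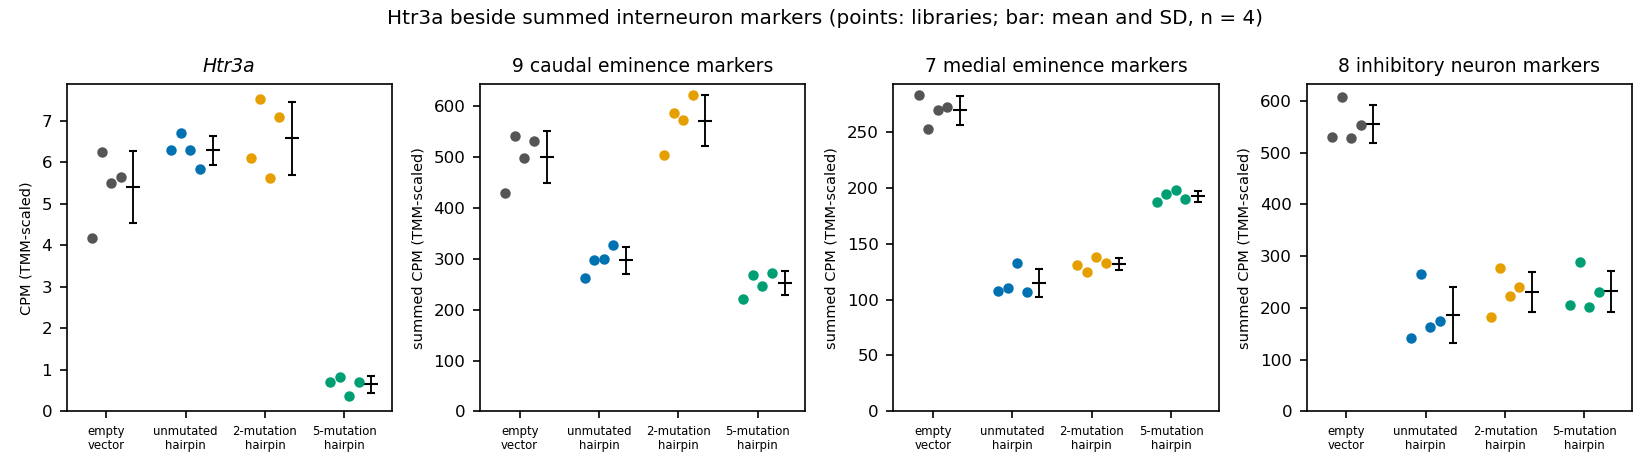
Htr3a in CPM and the summed CPM of caudal eminence, medial eminence and inhibitory neuron markers in each library (points), with the group mean and SD (n = 4) as a bar and axes from 0. Caudal eminence markers summed to 263 to 328 CPM with the unmutated hairpin, where Htr3a stood at 5.85 to 6.71 CPM, and to 221 to 272 CPM with 5 mutations, where Htr3a stood at 0.361 to 0.824 CPM. Reln makes up the largest part of this sum, and the markers are not drawn singly. Npas1, Prox1, Sp8, Vip and Reln had their lowest means with 5 mutations, as Htr3a did. Calb2, Nr2f2 and Lamp5 had theirs with 2 mutations, where Htr3a had its highest mean, and Cck with the unmutated hairpin.

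Each comparison is summarised here by how many of the 10 genes passed an adjusted p of 0.05 (edgeR's quasi-likelihood test, Benjamini-Hochberg over all 19479 genes). The share of all genes that passed is given beside each count. Nothing is read from the counts, since the genes were chosen with results of these libraries known. Which of them passed when a library was left out or a setting was changed is likewise a description, and lends the calls no support. With the unmutated hairpin against the empty vector, 2 of 10 were lower (Htr1b and Htr2a) and none was higher, where 40.3% of all genes passed, 20.8% higher and 19.5% lower. The libraries of 2 of the 10 did not overlap, against 38.4% of all genes, and the median log2 difference was -0.12, against 0.01 over all genes. Htr4, at the edge of the threshold, passed as well when empty-vector replicate 1 (-0.32) or unmutated replicate 3 (-0.35) was left out. It also passed with DESeq2 (-0.30), with other scaling (-0.30), with protein-coding genes only (-0.30) and with only the 2 groups fitted (-0.28).

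With the 2-mutation hairpin against the empty vector, 6 of 10 were lower and 1, Htr5a, was higher, where 63.3% of all genes passed, 32.5% higher and 30.8% lower. Of the 10, 5 did not overlap, against 60.1%. The median log2 difference of the 10 was -0.42, against -0.01 over all genes. The 6 lower genes included Htr1b and Htr1f, at the edge of the threshold. Htr1b no longer passed without empty-vector replicate 2 (-0.34) or 4 (-0.30) or without 2-mutation replicate 1 (-0.32) or 3 (-0.26). Htr1f no longer passed without empty-vector replicate 1 (-0.41) or 2 (-0.36) or without 2-mutation replicate 1 (-0.47), 3 (-0.49) or 4 (-0.41). Nor did it pass with DESeq2 (-0.49) or without the filter on low counts (-0.49). Htr3a passed without empty-vector replicate 2 (0.36) or 2-mutation replicate 3 (0.35).

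With the 5-mutation hairpin against the empty vector, 4 of 10 lay past the threshold on the higher side (Htr1b, Htr1d, Htr2a and Htr5a) and 2 on the lower side (Htr2c and Htr3a), where 54.9% of all genes passed, 28.4% higher and 26.5% lower. Of the 10, 5 did not overlap, against 48.1%. The median log2 difference of the 10 was 0.12, against 0.03 over all genes. Htr1d no longer passed without empty-vector replicate 1 (1.0), 3 (1.08) or 4 (0.98). Htr1b no longer passed without empty-vector replicate 1 (0.30) or 3 (0.34) or without 5-mutation replicate 1 (0.31) or 3 (0.32).

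**Figure D3:**
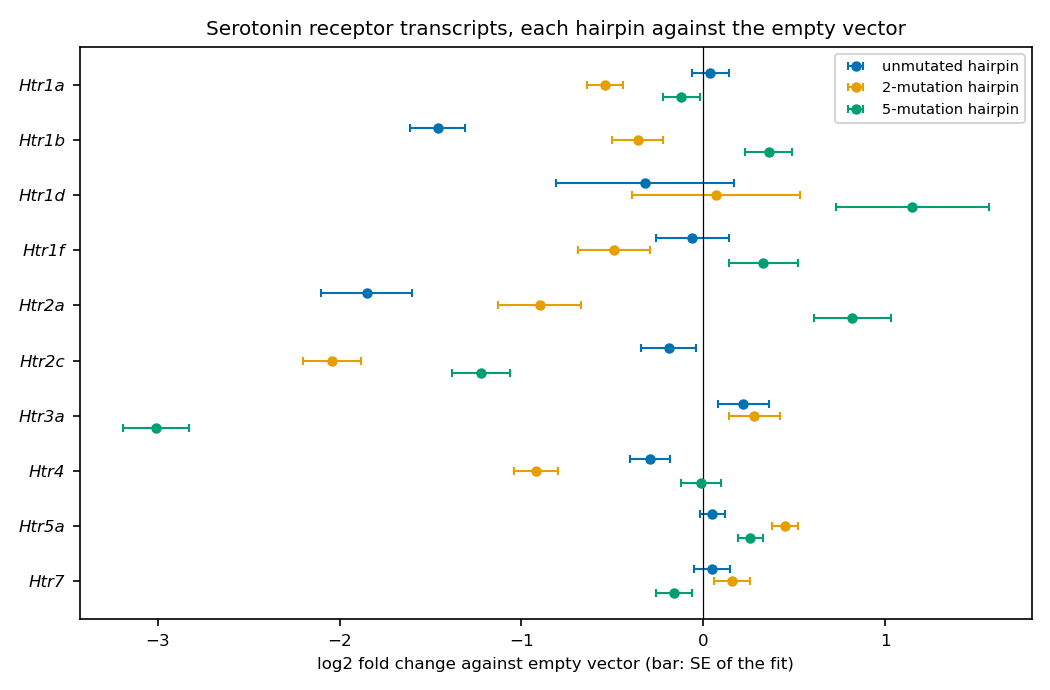
Log2 fold change of each receptor gene against the empty vector (points) with the SE of the fit as a bar, for the 3 hairpins. Htr3a lies at -3.01 with 5 mutations, Htr2c at -2.04 with 2 mutations and Htr2a at -1.85 with the unmutated hairpin.

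The hairpins also differed from each other. Between the unmutated and the 2-mutation hairpin 3 of 10 genes were higher (Htr1a, Htr2c and Htr4) and 3 lower (Htr1b, Htr2a and Htr5a), where 62.7% of all genes passed, 31.2% higher and 31.5% lower, and 6 did not overlap, against 59.3%. Between the unmutated and the 5-mutation hairpin 2 were higher (Htr2c and Htr3a) and 5 lower, where 55.3% of all genes passed, 26.8% higher and 28.5% lower, and 6 did not overlap, against 46.7%. Of these 5, Htr4 (-0.28) no longer passed without unmutated replicate 1 (-0.23), 2 (-0.29) or 4 (-0.24) or 5-mutation replicate 2 (-0.27) or 4 (-0.19), and Htr5a (-0.21) no longer passed without unmutated replicate 4 (-0.17). Htr4 also failed to pass with DESeq2 (-0.26), with other scaling (-0.27) and without the filter on low counts (-0.28). Between the 2-mutation and the 5-mutation hairpin all 10 lay past the threshold, 3 higher (Htr3a, Htr5a and Htr7) and 7 lower, where 65.9% of all genes passed, 32.3% higher and 33.6% lower, and 8 did not overlap, against 58.9%. Here Htr1d (-1.08) no longer passed without 2-mutation replicate 3 (-0.86) or 4 (-0.91), and Htr5a (0.19) no longer passed without 2-mutation replicate 1 (0.18) or 3 (0.15) or 5-mutation replicate 1 (0.18) or 4 (0.17). Htr5a did not pass with protein-coding genes only (0.15) either. Between the unmutated and the 2-mutation hairpin Htr1f (0.43) passed without unmutated replicate 3 (0.51) or 2-mutation replicate 2 (0.52). It also passed with protein-coding genes only (0.48) and with only the 2 groups fitted (0.47).

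Levels can be compared between receptors only per length, so CPM was divided by the kilobases of annotated exon (CPM per kb). With the empty vector Htr1a (4.90) and Htr2c (4.50) stood highest and their libraries overlapped. Htr3a (2.59) and Htr5a (2.57) followed and overlapped each other, and then Htr2a (1.55), Htr1b (1.35), Htr7 (1.33) and Htr4 (1.09), each overlapping its neighbour. Htr1f (0.548) and Htr1d (0.0729) stood below these without overlap. Among tested protein-coding genes in the same libraries, Htr1a lay at percentile 50.4 and Htr1d at percentile 4.13.

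The order differed with each hairpin. With the unmutated hairpin Htr1a (5.05 CPM per kb) stood above Htr2c (3.94) without overlap, and Htr2a (0.427), Htr1b (0.489) and Htr1f (0.522) overlapped near the bottom. With 2 mutations Htr5a (3.51), Htr1a (3.37) and Htr3a (3.16) led, each overlapping the next, and Htr2c (1.10) overlapped Htr1b (1.06). With 5 mutations Htr1a (4.53) led, Htr5a (3.08), Htr2a (2.73) and Htr2c (1.93) each overlapped the next, and Htr3a (0.314) overlapped only Htr1d (0.159) among its neighbours.

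**Figure D4:**
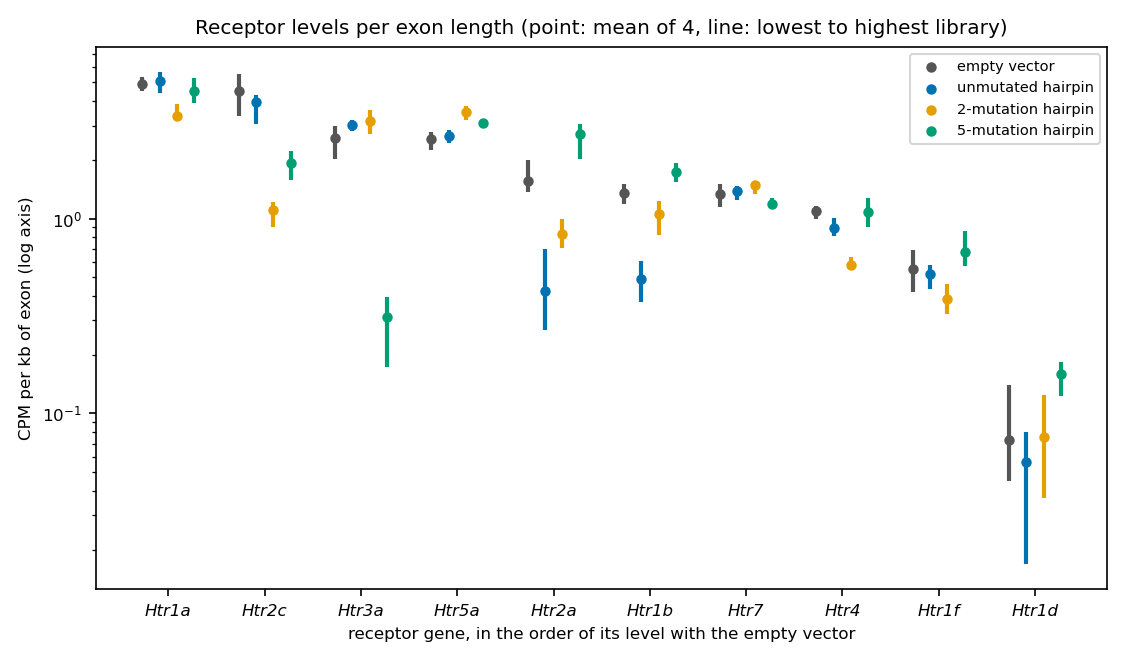
Level of each receptor gene per kb of exon on a log axis, ordered by its level with the empty vector (point, mean of 4 libraries; line, lowest to highest library). Htr1a stays between 3.37 and 5.05 CPM per kb in the 4 groups, while Htr3a runs from 0.314 to 3.16.

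Grouped by coupling, the 10 genes summed to 20.5 ± 1.70 CPM per kb (SD, n = 4) with the empty vector, 18.4 ± 1.36 with the unmutated hairpin, 15.6 ± 0.693 with 2 mutations and 17.4 ± 0.824 with 5. Gi/o-coupled receptors made up 46.2 ± 3.58% of that sum with the empty vector, 47.6 ± 1.37% with the unmutated hairpin, 54.1 ± 1.79% with 2 mutations and 58.4 ± 2.14% with 5. The Gq-coupled pair made up 29.3 ± 3.20%, 23.6 ± 2.21%, 12.4 ± 1.21% and 26.7 ± 2.50% in the same order. Similar Gq shares with the empty vector and with 5 mutations were made of different genes, since Htr2c over Htr2a per kb was 2.92 ± 0.490 in the first and 0.731 ± 0.195 in the second. This ratio was 10.3 ± 3.33 with the unmutated hairpin and 1.34 ± 0.223 with 2 mutations, so its range over libraries did not overlap between any of the 4 groups. The share of Htr3a was 12.6 ± 1.10% with the empty vector, 16.5 ± 1.53% with the unmutated hairpin, 20.3 ± 1.95% with 2 mutations and 1.82 ± 0.602% with 5, and the share of the Gs-coupled pair stayed between 11.8 and 13.3%.

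Of the 4 receptor genes outside the 10, Htr5b and Htr6 passed the filter on low counts. Htr5b, a close relative of Htr5a, stood at 0.172, 0.208, 0.155 and 0.288 CPM with the empty vector and at 0.781, 0.585, 0.717 and 0.580 CPM with the unmutated hairpin. It was at 0.0427, 0.0496, 0.0235 and 0.0644 CPM with 2 mutations, from 1 to 3 counts a library, and at 0.327, 0.196, 0.445 and 0.382 CPM with 5. The unmutated libraries lay above and the 2-mutation libraries below all others. The log2 difference of Htr5b from the empty vector was 1.68 ± 0.31 with the unmutated hairpin (adjusted p = 0.000118, edgeR). It was -2.11 ± 0.52 with 2 mutations (adjusted p = 0.00037, edgeR) and 0.68 ± 0.33 with 5 (adjusted p = 0.0873, edgeR), the last passing without empty-vector replicate 4 (0.89) or 5-mutation replicate 2 (0.88). Htr5b and Htr5a thus stood in different orders over the groups.

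Htr6, a Gs-coupled receptor of striatal and cortical neurons, stood at 5.94, 5.66, 5.50 and 5.95 CPM with the empty vector and at 5.17, 5.66, 5.05 and 5.50 CPM with the unmutated hairpin. It was at 3.86, 4.22, 3.48 and 3.56 CPM with 2 mutations and at 4.84, 4.28, 5.06 and 4.87 CPM with 5. It fell with 2 mutations (log2 difference -0.61 ± 0.09, adjusted p = 6.91e-06, edgeR) in 4 of 4 libraries, and with 5 mutations (-0.28 ± 0.09, adjusted p = 0.0147, edgeR), a call that did not pass without 5-mutation replicate 2 (-0.23). With the unmutated hairpin it was -0.11 ± 0.09 (adjusted p = 0.384, edgeR). Htr2b had 0 to 5 counts and Htr3b 0 to 4 counts a library, below the filter, and a count of 0 allows up to 3 counts, or 0.0588 to 0.0893 CPM. Htr3b, the partner subunit of Htr3a, was therefore not measurable at this depth, and Htr2b also shares exon sequence with the abundant Psmd1.

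**Figure D5:**
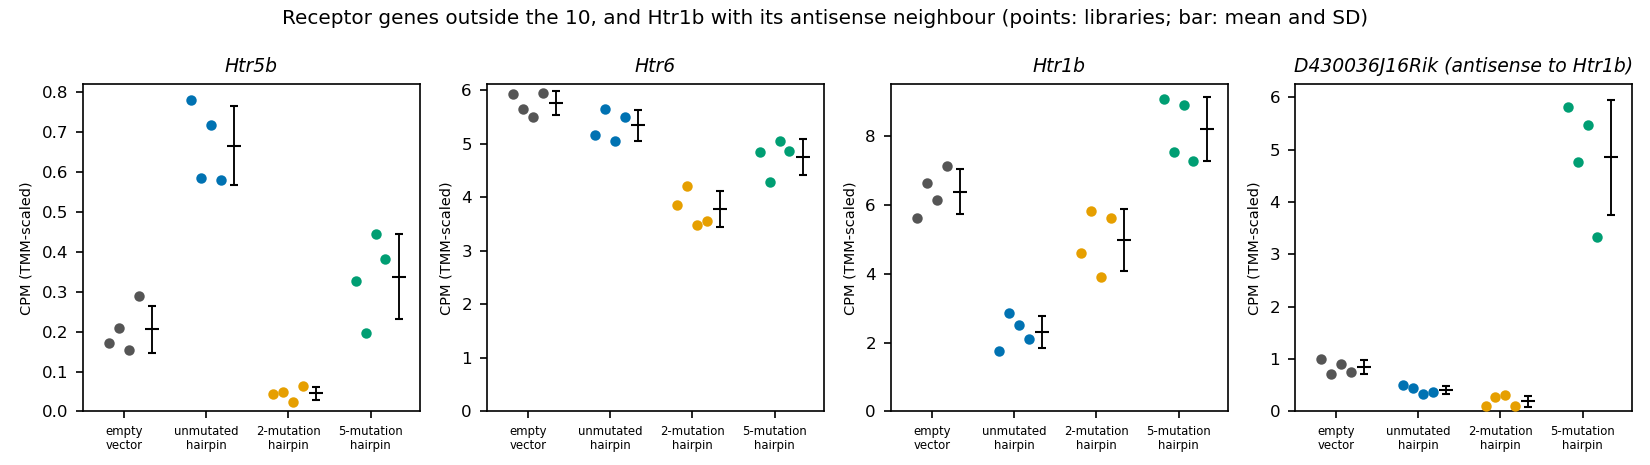
Htr5b, Htr6, Htr1b and D430036J16Rik, the antisense gene whose exons overlap Htr1b, in CPM in each library (points), with the group mean and SD (n = 4) as a bar and axes from 0. D430036J16Rik reaches 3.34 to 5.82 CPM with 5 mutations and stays at or below 1.0 CPM elsewhere.

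Other genes of the serotonin system were read from lists of 99 genes by function, 95 of which were tested, counting Htr5b and Htr6. Of these, 24 rose and 27 fell with the unmutated hairpin (53.7%, against 40.3% of all genes), 27 rose and 46 fell with 2 mutations (76.8%, against 63.3%) and 32 rose and 40 fell with 5 (75.8%, against 54.9%), by edgeR's quasi-likelihood test. The median log2 difference over the 95 was 0.02, -0.15 and 0.02, against 0.01, -0.01 and 0.03 over all genes tested. Of all genes, 20.8% rose and 19.5% fell with the unmutated hairpin, 32.5% and 30.8% with 2 mutations and 28.4% and 26.5% with 5. The lists were drawn up with earlier results of these data known, so their counts are given as a description.

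Among 16 tested genes for synthesis, storage, uptake and breakdown of serotonin, 2 rose and 3 fell with the unmutated hairpin, 7 rose and 3 fell with 2 mutations and 8 rose and 4 fell with 5. These are 31.2, 62.5 and 75.0% of the list in that order, against 40.3, 63.3 and 54.9% of all genes. Maoa, which degrades serotonin, rose from 38.9 ± 0.866 to 76.9 ± 2.04 CPM (SD, n = 4) with 2 mutations (log2 0.98 ± 0.04, adjusted p = 1.58e-14, edgeR). Aldh2, which acts on the aldehyde formed next, rose with all 3 hairpins (log2 0.59, 0.32 and 0.77). Slc22a3, a low-affinity monoamine transporter, fell from 3.89 ± 0.265 CPM to 2.02 ± 0.332, 0.743 ± 0.0950 and 1.12 ± 0.146 CPM. Qdpr, which regenerates the cofactor of tryptophan hydroxylase, rose with 2 mutations (log2 1.03 ± 0.05) and fell with 5 (-1.17 ± 0.05).

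Of 16 receptor G protein genes, 6 fell and 3 rose with the unmutated hairpin, 9 fell and 4 rose with 2 mutations and 9 fell and 3 rose with 5. The shares were 56.2, 81.2 and 75.0% in that order, against 40.3, 63.3 and 54.9% of all genes. Gnb1, the most widely used beta subunit, fell from 978 ± 13.3 CPM to 527 ± 7.83, 708 ± 31.2 and 264 ± 13.5 CPM (log2 -0.89, -0.47 and -1.89). Gnao1, the main Go alpha subunit of neurons, fell from 891 ± 27.5 to 270 ± 10.7 CPM with 5 mutations (log2 -1.72 ± 0.04, adjusted p = 4.31e-19, edgeR), while Gnai3, a Gi alpha subunit, rose from 68.4 ± 1.04 to 135 ± 7.85 CPM. With 2 mutations Gnb4 fell by 2.19 and Gna13 by 1.07 on the log2 scale.

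Among 27 effectors, 8 rose and 9 fell with the unmutated hairpin, 6 rose and 15 fell with 2 mutations and 9 rose and 11 fell with 5. In that order 63.0, 77.8 and 74.1% passed, against 40.3, 63.3 and 54.9% of all genes. Adcy7, an adenylyl cyclase, rose from 5.88 ± 0.583 to 17.2 ± 1.63 CPM with the unmutated hairpin and to 28.8 ± 1.03 CPM with 5 mutations, and stood at 5.38 ± 0.470 CPM with 2. Prkcb, a protein kinase C gene downstream of Gq, fell from 386 ± 19.6 to 226 ± 5.33 CPM with 2 mutations. Itpr1, the calcium-release channel of the same pathway, fell from 169 ± 5.70 to 63.7 ± 2.91 CPM with 2 mutations.

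Of 21 genes for receptor partners and trafficking, 6 rose and 9 fell with the unmutated hairpin, 8 rose and 9 fell with 2 mutations and 8 rose and 8 fell with 5. These are 71.4, 81.0 and 76.2% of the list, against 40.3, 63.3 and 54.9% of all genes. Arrb1, a beta-arrestin that binds activated receptors, fell with all 3 hairpins, from 413 ± 5.41 CPM to 263 ± 8.57, 211 ± 3.77 and 219 ± 7.98 CPM. Grk3, a receptor kinase, fell with 2 mutations (log2 -1.22 ± 0.05), Snx27, a recycling adaptor, fell with 5 (-1.18 ± 0.04), and Rgs20, which speeds GTP hydrolysis, rose with the unmutated hairpin (0.76 ± 0.07).

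The 10 reported regulators of Htr1a transcription comprised 4 that rose and none that fell with the unmutated hairpin, 2 that rose and 5 that fell with 2 mutations, and 4 in each direction with 5. The shares were 40.0, 70.0 and 80.0%, against 40.3, 63.3 and 54.9% of all genes. With 2 mutations, where Htr1a was low, the reported regulators Deaf1 (75.2 ± 2.56 to 139 ± 2.11 CPM) and Cc2d1b (12.8 ± 0.405 to 23.0 ± 1.35 CPM) rose and Yy1 fell (79.8 ± 2.31 to 51.4 ± 0.983 CPM). With 5 mutations, where Htr1a overlapped the empty vector, Cc2d1b rose to 24.5 ± 1.02 CPM. The editing enzymes, which act on the Htr2c transcript, did not pass with the unmutated hairpin (Adar 0.01, Adarb1 -0.02 and Adarb2 -0.07 on the log2 scale), and all 3 fell with either mutated hairpin: Adar by 0.51 and 0.13, Adarb1 by 0.34 and 0.68 and Adarb2 by 0.88 and 1.57 on the log2 scale with 2 and 5 mutations. The call of Adar with 5 mutations did not pass without 5-mutation replicate 4 (-0.10). Of all genes tested, 30.8% fell with 2 mutations and 26.5% with 5. Editing itself cannot be read from gene counts.

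The receptor genes were also compared with each other and with all well-measured protein-coding genes by Pearson's r of log2 CPM over the 16 libraries, a description in which libraries of 1 group share their treatment. Within the 10 the highest r was 0.93 for Htr1b with Htr2a, then 0.82 for Htr1a with Htr2c, and the lowest was -0.90 for Htr2c with Htr5a. Outside the 10, the closest gene to Htr3a was Brpf3 (r = 0.989), whose group means were 32.4 CPM with the empty vector, 35.6 with the unmutated hairpin, 36.6 with 2 mutations and 15.9 with 5. The next were Ahcyl2 (0.985) and Pnma2 (0.982). Among the closest to Htr2c were C2cd2l (0.984) and Rgs17 (0.983), of which Rgs17 stood at 110, 105, 22.1 and 48.4 CPM in the same order. The closest to Htr2a were Kcnj3 (0.968), a potassium channel subunit opened by G protein beta-gamma subunits, Jade3 (0.961) and C1galt1 (0.956), with Kcnj3 at 90.7, 53.2, 69.8 and 121 CPM. Htr1b was closest to Bcas2 (0.965), Rnf44 (0.962) and Tpd52 (0.956), and Htr4 to Tmem170b (0.972), Nectin3 (0.972) and Proser1 (0.971). Htr1a was closest to Ston2 (0.95), Cadm1 (0.922) and Kif5c (0.921), and Htr5a to Ctnnd1 (0.94), Vmp1 (0.933) and Btaf1 (0.93). The steadier or scarcer receptors had looser matches, with Hemk1 (0.888), Il18bp (0.877) and Lmf1 (0.867) for Htr1f, Map3k1 (0.865), Zfp157 (0.843) and Prpf38b (0.828) for Htr1d and Bcl2l11 (0.84), Olfm3 (0.835) and Setd1a (0.834) for Htr7.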

How the data were processed

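Raw counts per gene for 16 libraries were deposited by the authors. Per the submitters' processing notes, the tools were STAR 2.7.2b and featureCounts, after trimming tools cutadapt 1.15 and Trim Galore 0.6.0, with build GRCm38.p6; the strand setting is not given in the sources used here. The table held no counts for 37 mitochondrial genes.

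All 16 libraries were fitted in edgeR 4.0.16 (R 4.3.3) with 1 coefficient per group, TMM scaling, filterByExpr at its default minimum count of 10 and the robust quasi-likelihood test, with Benjamini-Hochberg adjustment over all genes tested. The SE is that of the fitted log2 fold change. Gene positions and exon lengths came from GENCODE annotation of GRCm38. The fit was tested on simulated data. The members, the gene lists and the marker lists were chosen with earlier results of these data known. Named besides all 14 receptor genes were, per pathway list, the 2 genes with the smallest p in each comparison with the empty vector and, per member, the 3 genes of highest Pearson's r among protein-coding genes whose mean log2 CPM was 2 or more. Some genes that this rule names are not reported here. Psmd1, D430036J16Rik and the markers were named after their values were seen. Alternatives were DESeq2 1.42.0, other scaling, filters and gene sets, a replicate block and leaving out each library.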

Additional observations from a re-analysis of the deposited data

Results flagged for a closer look

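Of 56 groups of 4 libraries tested (14 receptor genes in 4 groups), 4 held a library whose distance to the nearest other exceeded Dixon's 95% critical share of the group's range, and chance gives about 1 in 20. Htr1a was 17.4 CPM in replicate 4 of the 2-mutation hairpin, against 14.2 to 14.6 in the other libraries. Htr2a was 11.1 CPM in replicate 2 of the empty vector, against 7.65 to 8.07 in the others. Htr2c was 28.6 CPM in replicate 1 of the unmutated hairpin, against 38.3 to 40.2 in the others. Replicate 1 was also lowest for Htr2c in each other group (31.2 CPM with the empty vector, 8.43 with 2 mutations and 14.7 with 5). Htr7 was 4.57 CPM in replicate 1 of the 2-mutation hairpin, against 5.22 to 5.28 in the others.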

How the results depend on the processing

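The log2 fold changes of the 10 receptor genes moved by less than 1 SD between replicates under every alternative run, 60 values under each setting for all libraries except 58 where only the 2 groups compared were fitted, since Htr1d was then filtered out of 2 comparisons. Of 38 values past the threshold, 8 no longer passed under at least 1 alternative, 5 of them only when a library was left out, and apart from Htr1d none of the 8 exceeded 0.49 in size. Of the others, 5 came to pass. Leaving out single libraries gave 7011 to 7512 genes past the threshold with the unmutated hairpin against the empty vector, 11733 to 12066 with 2 mutations and 10129 to 10889 with 5.

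With a replicate block, 8589, 12724 and 11171 genes passed in these 3 comparisons, against 7859, 12324 and 10697 without it, and 54, 74 and 72 serotonin pathway genes, against 51, 73 and 72. Of the 10 receptor genes, the block brought 5 values past the threshold: Htr2c and Htr4 between the unmutated hairpin and the empty vector, Htr3a between 2 mutations and the empty vector, Htr1f between the unmutated and the 2-mutation hairpin and Htr1a between the unmutated and the 5-mutation hairpin. Deviations from the group means correlated at -0.0215 to 0.272 in 24 pairs of libraries of the same number (median 0.099, 12 over 0.1), against a median of -0.032 in 72 pairs of different numbers (4 over 0.1), and 11 of 16 libraries were closest to their own number. The choroid plexus sums also followed the number, being lowest in replicate 2 of each group. The labels state no shared culture or day for a number, and not every pair was over 0.1, so the block was kept as an alternative. Htr1d, Htr5b, Htr2b and Htr3b are limited by depth.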
